A study of Homo sapiens with 45 samples.

Results

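The regions described here are stretches of human chromatin that lay in lamin B1 domains of control cells while none of 3 repressive histone marks covered them. Chromosomes 1 to 22 of GRCh38 were divided into 57494 bins of 50 kb, each chromosome being ended at its last domain or RefSeq gene. A bin was taken when at least 50% of its bases lay in the control lamin B1 domain list and under 50% in each of the control H3K9me2, H3K9me3 and H3K27me3 lists. The rule gave 1026 bins, 51.3 Mb in all, which were 1.78% of all bins and 6.01% of the 17079 control lamin B1 bins. They are called unmarked lamin B1 bins below. Of these, 1 is a partial end bin of 15 kb, chr14:106900001-106915000, counted below among the bins kept. Its coverage was taken over that length, and it may not meet the rule over a full 50 kb.

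The cells were HCT116, an established epithelial line from a human colon cancer. They received 25 nM of a nontargeting control siRNA or of siRNA against HNRNPK, which encodes an RNA- and DNA-binding protein, and were collected after 72 hours. Chromatin immunoprecipitation sequencing used 3 lamin B1 and 3 H3K9me3 libraries and 2 H3K27me3 libraries for each siRNA, and 3 H3K9me2 libraries for the control siRNA alone. Domains were deposited as 1 list per antibody and siRNA, so values from the domain lists carry no replicate error and no test. RNA sequencing gave 4 control siRNA and 4 HNRNPK siRNA libraries, each group made up of 2 libraries from the TruSeq kit and 2 from the Ligation kit. A further 2 nontargeting control libraries, named Scramble, were purified with another kit and counted in separate tables. Nothing says that the libraries of a group came from separate cultures, so p-values measure the spread between these libraries, which may be technical, and all cells are of 1 line.

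Lamina-associated domains are long stretches of chromosome that contact the nuclear lamina, the meshwork of lamin A, B and C filaments under the inner nuclear membrane. They are typically poor in genes and low in transcription. H3K9me2 and H3K9me3, laid down by histone methyltransferases such as EHMT2, SUV39H1 and SETDB1, and H3K27me3, laid down by the Polycomb methyltransferase EZH2, are the repressive marks usually found over or at the borders of these domains. H3K9 methylation is known to take part in tethering chromatin to the lamina.

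The promoters of 6 genes in unmarked lamin B1 bins are shown because the results return to them. ACADL, MYL1, LANCL1 and CPS1 are neighbours in the longest run of unmarked bins that was wholly absent from the knockdown lamin B1 list. MINAR1 and SLC35B3 had the largest rise and the largest fall in RNA among the named genes whose RefSeq start lay in an unmarked bin. Each sequence is the 250 bases before the RefSeq start in GRCh38.p14, on the strand of the gene, with every CpG in capitals. That start belongs to 1 RefSeq transcript of each gene and can lie inside the gene's whole RefSeq span, as it does for LANCL1, CPS1, MINAR1 and SLC35B3. The ACADL sequence is chr2:210225448-210225697 on the minus strand, that of MYL1 is chr2:210315175-210315424 on the minus strand, and that of LANCL1 is chr2:210476760-210477009 on the minus strand. The CPS1 sequence is chr2:210593105-210593354 on the plus strand. That of MINAR1 is chr15:79432086-79432335 on the plus strand, and that of SLC35B3 is chr6:8435546-8435795 on the minus strand.
ACADL: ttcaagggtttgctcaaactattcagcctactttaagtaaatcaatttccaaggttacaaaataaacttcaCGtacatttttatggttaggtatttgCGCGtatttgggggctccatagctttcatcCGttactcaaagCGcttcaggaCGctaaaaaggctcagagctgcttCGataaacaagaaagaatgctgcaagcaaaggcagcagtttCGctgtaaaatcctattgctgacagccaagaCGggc
MYL1: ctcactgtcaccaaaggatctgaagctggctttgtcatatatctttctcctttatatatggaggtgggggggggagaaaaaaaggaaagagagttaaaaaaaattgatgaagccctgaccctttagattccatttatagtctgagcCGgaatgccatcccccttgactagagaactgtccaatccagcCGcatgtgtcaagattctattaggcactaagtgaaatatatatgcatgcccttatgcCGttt
LANCL1: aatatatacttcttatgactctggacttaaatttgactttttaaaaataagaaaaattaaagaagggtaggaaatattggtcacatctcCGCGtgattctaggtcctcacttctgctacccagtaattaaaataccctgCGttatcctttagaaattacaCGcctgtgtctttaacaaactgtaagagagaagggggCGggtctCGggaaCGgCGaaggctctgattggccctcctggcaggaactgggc
CPS1: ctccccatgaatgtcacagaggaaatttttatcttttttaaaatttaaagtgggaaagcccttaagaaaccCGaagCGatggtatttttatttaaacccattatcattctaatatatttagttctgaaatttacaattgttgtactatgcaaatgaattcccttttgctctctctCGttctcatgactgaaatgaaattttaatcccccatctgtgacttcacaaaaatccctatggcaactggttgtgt
MINAR1: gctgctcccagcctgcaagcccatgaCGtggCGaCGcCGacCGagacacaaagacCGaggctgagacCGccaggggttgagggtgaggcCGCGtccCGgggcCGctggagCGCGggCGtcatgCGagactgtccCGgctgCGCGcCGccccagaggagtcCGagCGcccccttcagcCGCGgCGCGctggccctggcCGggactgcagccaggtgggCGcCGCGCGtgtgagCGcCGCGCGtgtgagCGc
SLC35B3: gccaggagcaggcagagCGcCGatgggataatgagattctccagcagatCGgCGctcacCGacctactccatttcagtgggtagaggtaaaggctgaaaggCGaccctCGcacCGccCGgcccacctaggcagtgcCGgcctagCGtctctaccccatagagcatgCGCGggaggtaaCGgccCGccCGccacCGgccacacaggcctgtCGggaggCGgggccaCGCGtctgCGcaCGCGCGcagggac

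Of the chromosome 2 promoters, that of ACADL held 9 CpG, that of MYL1 3, that of LANCL1 8 and that of CPS1 3. The MINAR1 promoter held 35 CpG and that of SLC35B3 held 25. The median over the 67 coding genes starting in unmarked bins was 11 CpG, with a middle range of 3 to 23. The median was 7 over 1326 coding genes starting in lamin B1 bins that carried a mark and 20 over 10662 starting in unmarked bins outside lamin B1. The motif GGGCGG, searched on both strands, occurred in 49.3% of the promoters in unmarked lamin B1 bins, 32.8% of those in marked lamin B1 bins and 56.8% of all coding gene promoters. Of those printed, LANCL1, MINAR1 and SLC35B3 held it. The motif TATAAA, on both strands, occurred in 16.4% of the promoters in unmarked lamin B1 bins and 16.7% of those in marked lamin B1 bins. Its share was 9.13% of all coding gene promoters, and of those printed MYL1 held it. The motifs do not overlap in sequence, and a match describes these letters alone.

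The bins were selected on their coverage by the control lamin B1, H3K9me2, H3K9me3 and H3K27me3 lists, and these values are given as a description. Lamin B1 domains covered 869 of the 1026 bins (84.7%) fully, and 918 (89.5%) had no base in any control mark list. Some H3K27me3 was present in 74 bins, some H3K9me3 in 31 and some H3K9me2 in 16. Just inside the lamin limit lay 40 bins with 50 to 55% coverage, of which 2 stayed in the knockdown lamin B1 list, and just outside it lay 45 bins with 40 to under 50%, of which 1 was in that list. Just inside the limit on marks lay 27 bins with 40 to under 50% of a mark, of which 9 stayed, and just outside it lay 28 bins with 50 to under 60%, of which 7 stayed.

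Unmarked lamin B1 bins lay on all 22 chromosomes, in unequal numbers. Chromosome 4 held 284 of them (27.7%), although it held 6.23% of all control lamin B1 bins. On that chromosome 26.7% of the lamin B1 bins were unmarked, and 278 of the 284 (97.9%) lay from 100 Mb onwards, on the long arm. Chromosome 2 followed with 137 bins, then chromosome 3 with 102, chromosome 1 with 83, chromosome 6 with 72, chromosome 12 with 69 and chromosome 7 with 68. Chromosome 19 held 2. The plot of bins by chromosome shows this distribution together with the bins kept after the knockdown.

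**Figure D1:**
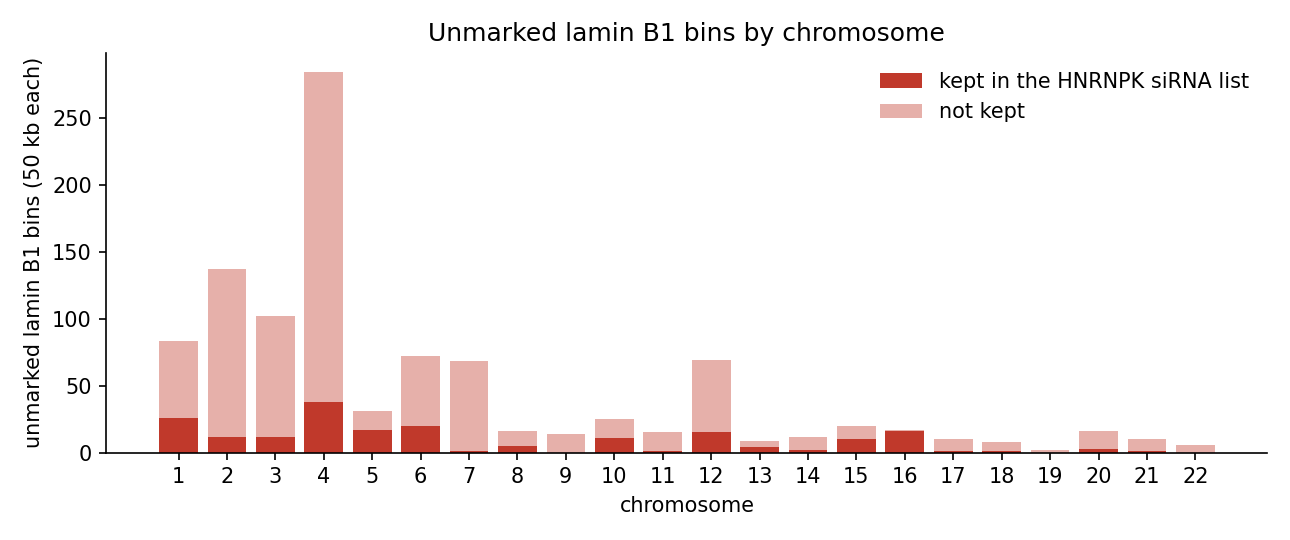
Number of unmarked lamin B1 bins (50 kb each) on each autosome; the dark part of each bar is the number also covered by the HNRNPK siRNA lamin B1 list. Chromosome 4 holds 284 bins, of which 38 were kept, and chromosome 16 holds 17, of which 16 were kept.

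Neighbouring bins joined into 259 unbroken runs with a median length of 100 kb. A run of 1 bin occurred 81 times, and 21 runs of at least 10 bins held 346 bins (33.7%). The longest run, of 34 bins, was chr4:179350001-181050000 and held no RefSeq protein-coding gene. The next was chr2:210200001-211850000, with 33 bins, which holds MYL1, LANCL1, CPS1, most of ACADL and 40.8% of ERBB4, the gene of a receptor tyrosine kinase. The following runs were chr4:147900001-149350000, over NR3C2 and part of ARHGAP10, chr4:174250001-175450000, over CEP44, HPGD, GLRA3, ADAM29 and most of FBXO8, and chr2:227950001-228900000, over SPHKAP.

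The control lamin B1 domains holding unmarked bins were short and had low deposited scores. The median domain length over unmarked bins was 685 kb, against 830 kb over bins with H3K27me3 alone and 1835 kb over all lamin B1 bins with a mark. The median domain score, a value deposited with each domain whose unit is not given in the sources used here, was 0.531 over unmarked bins, 0.823 over bins with H3K27me3 alone and 1.24 over bins with H3K9me2 and H3K9me3. Unmarked bins lay within 100 kb of a domain end in 50.9% of cases, bins with H3K27me3 alone in 42.4% and all lamin B1 bins with a mark in 16.3%. Of the 803 control lamin B1 domains on these chromosomes, 72 held no base of any mark, and these 72 held 472 of the unmarked bins (46.0%). The median distance from an unmarked bin to the nearest control domain was 435 kb for H3K27me3, 1162.5 kb for H3K9me3 and 1500 kb for H3K9me2. H3K27me3 was the nearest mark for 725 bins, ties included.

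After HNRNPK siRNA, most unmarked bins were absent from the lamin B1 list. A bin counted as kept when at least 50% of its bases lay in the knockdown lamin B1 domain list. Of the 1026 unmarked bins 196 were kept (19.1%), and over all 17079 control lamin B1 bins the share kept was 70.7%. No base was kept in 797 of the unmarked bins (77.7%), 152 were kept fully and 77 in part. The rule did not use the knockdown lists. There is 1 list for each siRNA, neighbouring bins share a domain, and the 2 lists start at different lowest scores, so these shares describe the lists and were not tested.

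The share kept was close to that of lamin B1 bins with H3K27me3 alone and far from that of the listed classes with H3K9me3. Of 3250 bins with H3K27me3 alone 17.2% were kept, of 2735 with H3K9me2 and H3K27me3 60.1%, of 1356 with all marks 95.9% and of 8291 with H3K9me2 and H3K9me3 98.1%. Unmarked bins were kept less often than the other lamin B1 bins on 21 of 22 chromosomes, the exception being chromosome 16. Against bins with H3K27me3 alone they were kept more often on 11 chromosomes and less often on 10. The plot of bins kept by control marks sets the classes side by side.

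**Figure D2:**
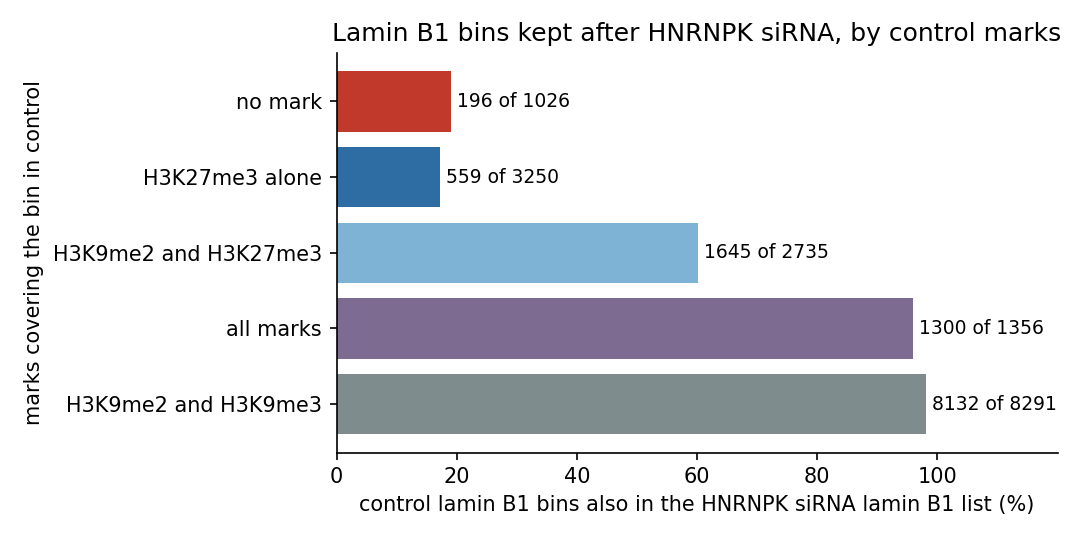
Share of control lamin B1 bins also covered by the HNRNPK siRNA lamin B1 list, in percent, by the marks covering the bin in control cells; labels give bins kept of bins in the class. Unmarked bins (19.1%) and bins with H3K27me3 alone (17.2%) lie far below bins with H3K9me2 and H3K9me3 (98.1%).

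The share kept varied with the domain a bin lay in. The deposited control score was divided into 4 ranges holding equal numbers of control lamin B1 bins, with limits of 0.783, 1.19 and 1.56. In the lowest range, with 651 unmarked bins, 9.83% were kept, and in the second, with 189 bins, 43.4%. In the third and the highest range, with 84 and 102 bins, the shares were 27.4% and 26.5%. The highest range includes the longest unmarked run, with 34 bins of which 2 were kept. Its domain scored 1.5562, just over the limit of 1.5553, so the share there leans on that domain. In the same 4 ranges, bins with H3K27me3 alone were kept in 8.32%, 19.3%, 28.2% and 31.8% of cases, and bins with H3K9me2 and H3K9me3 in 92.3% to 99.6%. Bins with H3K9me2 and H3K27me3 were kept in 14.9%, 43.2%, 68.4% and 81.6%, near the unmarked bins in the second range. The gap between unmarked bins and bins with H3K9me2 and H3K9me3 was present in every range.

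Depth within the domain moved with the share kept as well. Of 302 unmarked bins under 50 kb from the domain end 8.94% were kept, of 220 at 50 to 100 kb 12.3%, of 200 at 100 to 200 kb 19.0% and of 304 at 200 kb or more 34.2%. In the deepest class, 25.6% of bins with H3K27me3 alone, 71.1% with H3K9me2 and H3K27me3 and 99.4% with H3K9me2 and H3K9me3 were kept. Kept unmarked bins lay in domains with a median score of 1.05 and a median length of 1415 kb, and bins not kept in domains with medians of 0.507 and 580 kb. The knockdown list starts at a higher lowest score than the control list, and 400 unmarked bins (39.0%) lay in control domains scoring under that lowest value of 0.477. Of these 400 bins 20 were kept. With both lists held to that lowest score, 28.1% of 626 unmarked bins were kept, 19.0% of those with H3K27me3 alone and 98.6% of those with H3K9me2 and H3K9me3.

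**Figure D3:**
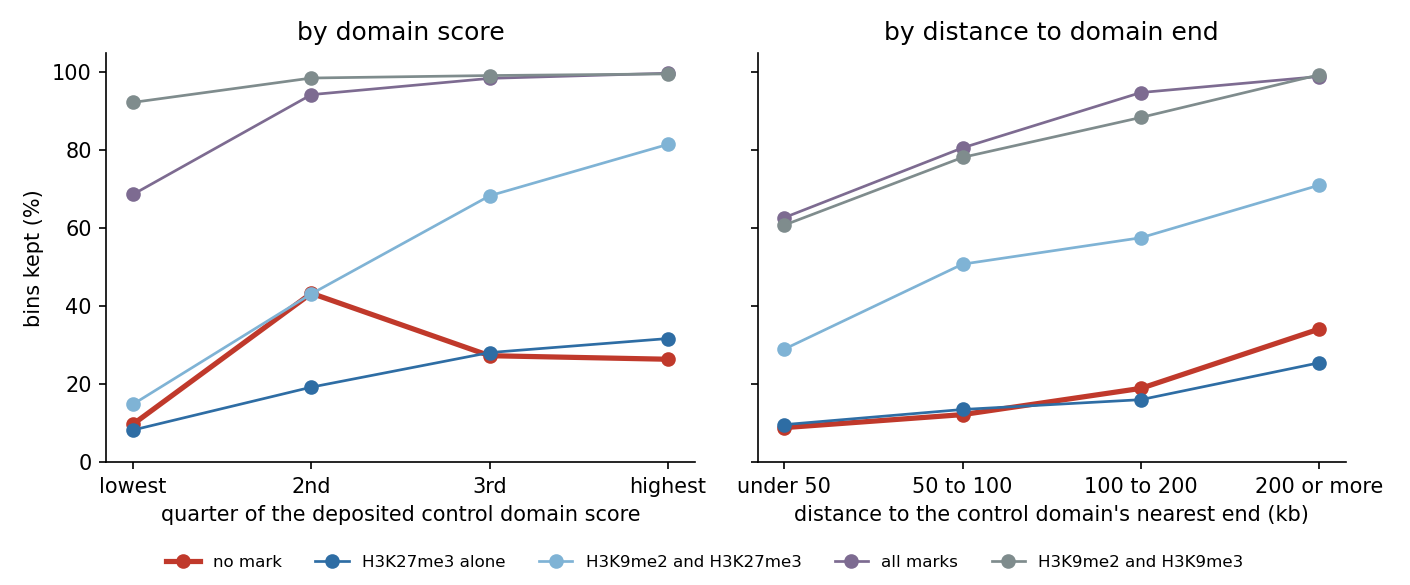
Share of control lamin B1 bins kept after HNRNPK siRNA, in percent, by range of the deposited control domain score (left) and by distance in kb to the nearest end of the control domain (right); each line is a class of control marks. Unmarked bins run from 9.83% to 43.4% on the left and from 8.94% to 34.2% on the right, below both classes with H3K9me3 at every step.

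Nearness to a mark went with being kept. Of 122 unmarked bins touching a control mark domain 30.3% were kept, of 232 up to 100 kb away 29.3%, of 295 at over 100 to 500 kb 20.0% and of 377 farther than 500 kb from every mark 8.49%. In the 72 domains without any mark, 46 of 472 bins were kept (9.75%), against 150 of 554 (27.1%) in domains that held a mark elsewhere. The parts played by score, domain length and nearness to marks in these shares were not tested.

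Of the 259 runs 192 were wholly absent from the knockdown list, 32 wholly kept and 35 mixed, and the 81 runs of 1 bin cannot be mixed by the count used. Of the 21 runs of at least 10 bins, 11 were wholly absent, 1 was wholly kept and 9 were mixed. The longest run kept 2 of its 34 bins although its domain scored 1.56. The chromosome 2 run over ACADL, MYL1, LANCL1 and CPS1 kept 0 of 33, and its domain scored 0.519. The run over ARHGAP10 and NR3C2 kept 15 of 29, that over FBXO8 and CEP44 kept 2 of 24 and that over SPHKAP kept 7 of 19. The next longest absent runs were chr3:144050001-144900000, with 17 bins and no coding gene, and chr3:178200001-179000000, with 16 bins over KCNMB2.

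The longest wholly kept run, chr16:6200001-6850000, with 13 bins, lay wholly within RBFOX1, a neuronal splicing regulator whose span of 2474 kb it covers in part. The next, chr15:99950001-100350000, with 8 bins, lay to 92.6% within ADAMTS17, a secreted metalloprotease gene. The run chr2:3150001-3350000, with 4 bins, first in genome order among 3 wholly kept runs of that length, lay to 80.5% within EIPR1, which acts in endosomal recycling. By chromosome, the share kept among those with at least 20 unmarked bins ran from 1.47% on chromosome 7 (1 of 68) to 54.8% on chromosome 5 (17 of 31).

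The unmarked bins mostly stayed without the measured marks after the knockdown. At least 50% of the bin lay in the knockdown H3K9me3 list for 61 bins (5.95%), and among all bins under that limit in control the share was 6.31%, so the unmarked bins were near the background. For H3K27me3 the count was 57 bins (5.56%), against a background of 0.666% of the bins under the limit in control. The length of H3K9me3 domains in unmarked bins went from 0.355 to 2.88 Mb and that of H3K27me3 from 0.945 to 3.24 Mb. The rule holds both marks low in control, so part of each increase is set by the rule, and the background above is the same measure under the same limit.

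Of the 57 bins that entered H3K27me3 domains, 16 had a base of the mark in control and 26 lay within 100 kb of a control H3K27me3 domain. Of the 61 that entered H3K9me3 domains, 14 had a base of it in control and 17 lay within 100 kb of a control domain. Kept bins entered H3K27me3 domains in 11.2% of cases (22 of 196) and bins not kept in 4.22% (35 of 830). For H3K9me3 these shares were 7.65% and 5.54%. In all, 750 of the 1026 bins (73.1%) were in none of the 3 knockdown lists, and 160 of the 196 kept bins (81.6%) were in the lamin B1 list alone. H3K9me2 had libraries for the control siRNA alone, so it could not be followed after the knockdown.

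Unmarked bins held few genes, and those were long. RefSeq places 119 protein-coding genes with at least 50% of their span in unmarked bins, or 2.32 per Mb, against 2.18 per Mb in the other lamin B1 bins and 9.12 per Mb in unmarked bins outside lamin B1. Their median span was 80.4 kb, against 27 kb in the other lamin B1 bins and 25.6 kb outside. No base of a RefSeq gene lay in 250 of the 1026 bins, and 514 held no base of a protein-coding gene. Bins with a coding base were kept in 19.7% of cases and bins without one in 18.5%.

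Among gene families known for lamina-associated clusters, olfactory receptors, which detect odorants, had 273 genes in lamin B1 bins and 0 in unmarked ones. ZNF genes, mostly zinc finger transcription factors, had 232 and 2, the latter ZNF496, which fell by 0.29 on the log2 scale, and ZNF672, which fell by 0.46. Bitter taste receptors had 6 and 3, the neighbours TAS2R3, TAS2R4 and TAS2R5 on chromosome 7. Keratin-associated proteins, clustered protocadherins, GABA receptors, ionotropic glutamate receptors and contactins had 0 in unmarked bins. Their counts in lamin B1 bins were 33, 20, 12, 9 and 6, in that order. As unmarked bins are 6.01% of the lamin B1 bins, a count of 0 in families this small says little. Genes with KCN symbols, mostly potassium channels, had 39 and 3, and solute carriers 34 and 2. Long intergenic noncoding genes with LINC symbols had 563 in lamin B1 bins and 27 in unmarked ones, and microRNA genes 252 and 13, the latter with no tested member.

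The 8 RNA libraries of the comparison held 12107280 to 23633851 counts, and the 2 Scramble libraries 55007171 and 59209169. HNRNPK itself had 884 ± 77.9 CPM (SD, n = 4; CPM is a read count divided by the TMM-scaled total of its library) in control and 198 ± 45.3 in the knockdown. The groups did not overlap, and the log2 fold change was −2.17 ± 0.06 (adjusted p = 7.29e-15). Fold changes, their standard errors (after ±) and adjusted p-values are from edgeR's quasi-likelihood test with Benjamini-Hochberg adjustment over all tested genes. Epithelial markers were all present, at 49.7 to 2604 CPM, while all 5 leukocyte markers, 5 of 6 fibroblast markers and 2 of 3 endothelial markers averaged under 1 CPM. The summed level of the epithelial markers was 2841 to 3317 CPM in control and 4529 to 5619 CPM in the knockdown, and that of the fibroblast markers 44.6 to 73.2 and 75.3 to 122 CPM. That of the leukocyte markers was 0.383 to 0.960 and 1.11 to 1.68 CPM, that of the endothelial markers 0.601 to 1.00 and 1.48 to 3.29 CPM, and their part in the results was not tested. Of 23 tested genes for lamins, lamina tethers and the enzymes and readers of the marks, 4 were higher and 12 lower, beside 71.5% passing, 35.5% higher and 36.1% lower over all tested genes. Among these LMNB1, the gene of the precipitated lamin, fell by 0.33 on the log2 scale (adjusted p = 4.22e-06), LMNA by 0.80 (adjusted p = 6.48e-10) and SUN2, which links the lamina to the cytoskeleton, by 0.94 (adjusted p = 5.15e-11). The H3K9 methyltransferase genes EHMT1 and SUV39H2 fell by 0.41 (adjusted p = 3.16e-06) and 0.37 (adjusted p = 3.39e-04). The 4 higher genes were LEMD3, BANF1, CBX3 and CBX5, which rose by 0.44, 0.26, 0.25 and 0.15. TMPO, SUV39H1, SETDB1, EZH1, EZH2, EED and SUZ12 did not pass the test. The part of these genes in the lamin B1 lists was not tested.

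A larger share of coding genes was read in unmarked lamin B1 bins than in the other lamin B1 bins, and a smaller share than in unmarked bins outside lamin B1. The count table named 192 genes with at least 50% of their span in unmarked bins, of which 116 were protein-coding, 53 long noncoding and 13 microRNA genes. Enough reads for the test were present for 86 of the 192, and for 76 of the 116 coding genes (65.5%). The share of coding genes tested was 17.2% in the other lamin B1 bins, 25.7% in those with H3K27me3 alone, 14.7% in those with H3K9me2 and H3K9me3, 77.7% in unmarked bins outside lamin B1 and 65.0% over all positioned coding genes. In the Scramble libraries, counted separately, 62.1% of the 116 genes had at least 1 CPM in both, against 13.7% in the other lamin B1 bins and 62.5% over all. In RNA from whole cultures, fewer cells expressing a gene and less RNA per cell cannot be told apart.

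Many of the genes that were read began outside the lamin B1 bins. RefSeq gives a start for 68 of the 76 tested coding genes, of which 24 began in an unmarked lamin B1 bin, 9 in another lamin B1 bin and 35 (51.5%) outside the lamin B1 bins. Of 35 untested coding genes with a start, 29 (82.9%) began in an unmarked bin. Genes lying wholly inside unmarked bins were tested in 26 of 112 cases. Counted by start in place of body, 34 of 67 coding genes in unmarked bins were tested (50.7%), against 16.8% of 1326 in the other lamin B1 bins, 79.3% of 10662 in unmarked bins outside lamin B1 and 65.0% over all. Of the coding genes wholly inside unmarked bins 37.5% were tested, a share not computed for the other classes. Counted by body and by start, the share lay between that of the other lamin B1 bins and that of unmarked bins outside lamin B1.

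A count near 0 in the table of 8 libraries did not always mean that a transcript was absent. The submitters' processing notes name hg38 for that table and both hg19 and hg38 for the Scramble tables. DENND11, DGCR6, SDCCAG8 and PRODH, which had 0 to 2 reads over the 8 libraries, had at least 1 CPM in both Scramble libraries. They are 4 of the 40 untested coding genes. Of the 12 coding genes without a read in the 8 libraries, 3 were read in the Scramble libraries at that level.

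After HNRNPK siRNA the genes of unmarked bins moved in both directions. Of the 86 tested genes 53 passed an adjusted p of 0.05 (61.6%), 22 higher (25.6%) and 31 lower (36.0%), and 33 did not pass. Over all 13933 tested genes 71.5% passed, 35.5% higher and 36.1% lower, so the share lower was near the background and the share higher below it. The median log2 fold change was −0.11 in unmarked bins and −0.004 over all tested genes. In the other lamin B1 bins, 175 of 321 tested genes were higher and 44 lower, with a median of 0.45. These shares are descriptions and the difference between the classes was not tested.

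**Figure D4:**
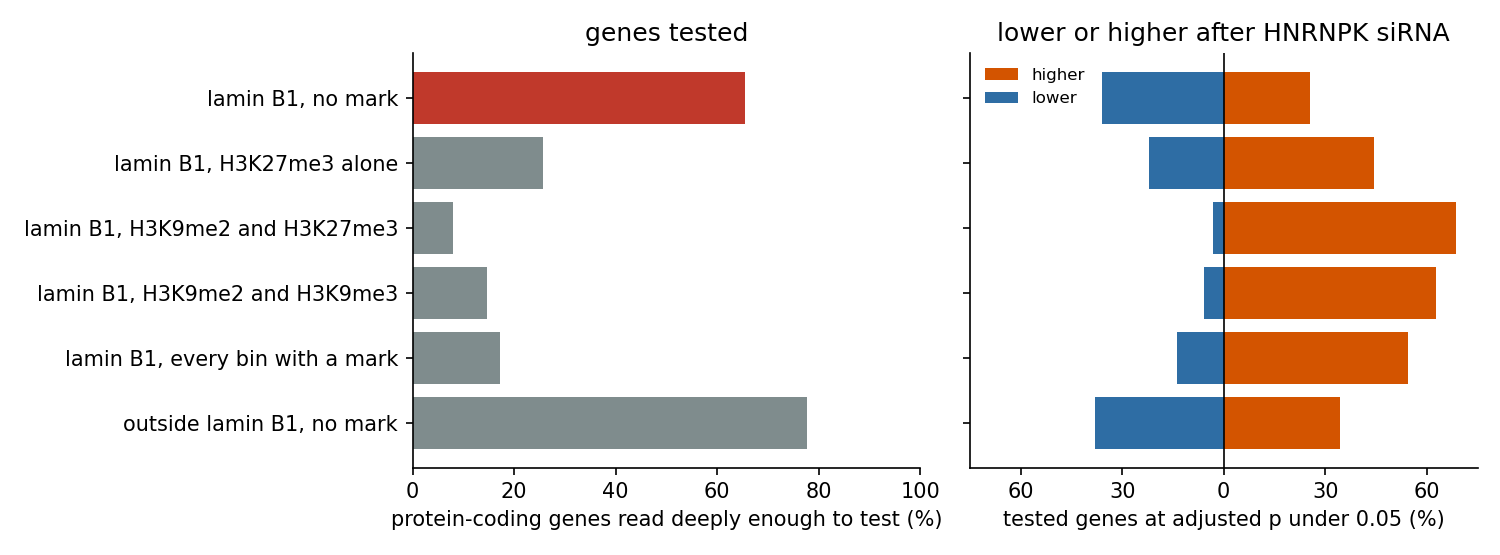
Left, percent of protein-coding genes read deeply enough to test, by the bins holding most of the gene; right, percent of tested genes (all types) at adjusted p under 0.05 that were higher (right of 0) or lower (left of 0) after HNRNPK siRNA. In unmarked lamin B1 bins 65.5% of coding genes were tested and 25.6% of tested genes were higher, while in lamin B1 bins with a mark 17.2% were tested and 54.5% were higher.

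Changes of at least 1 on the log2 scale occurred in 16 of the 86 genes (18.6%), 8 in each direction, against 15.8% over all tested genes. The CPM values of the 2 groups did not overlap for 47 of the 86 genes, against 56.5% over all tested genes. The 53 genes that passed had the same sign in both library kits. They were called from both kits together, so this agreement is not a separate check. No gene of these bins passed the test of a difference between the kits, by edgeR's quasi-likelihood test with adjustment over all genes, where 18 genes passed in all; 8 genes of these bins had an unadjusted p under 0.05. Of 15 tested genes whose unmarked bins were mostly kept, 2 were higher and 8 lower, and of 71 whose bins were mostly not kept, 20 were higher and 23 lower. The shares over all tested genes were 35.5% higher and 36.1% lower.

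The share of all counts that came from the 192 genes was lower after the knockdown. In control it was 0.257 ± 0.0056% (SD, n = 4), from 0.252 to 0.265%. After the knockdown it was 0.228 ± 0.0052% (SD, n = 4), from 0.222 to 0.233%, and the groups did not overlap. The 2 Scramble controls, whose tables list 165 of the genes, had 0.205 and 0.211%, below both groups.

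MINAR1, a membrane protein that binds NOTCH2, had the largest rise among the named genes whose RefSeq start lay in an unmarked bin. It lies at chr15:79411400-79472304 and the start of its span overlaps the end of TMED3, which fell by 0.36 (adjusted p = 8.06e-05). Its control values were 11.5, 10.8, 11.8 and 11.3 CPM and its knockdown values 38.6, 46.4, 45.3 and 42.9 CPM. The groups stood far apart in both kits, and the gene rose by 1.93 ± 0.08 on the log2 scale (adjusted p = 3.29e-13). Its CpG-rich promoter, printed above, lay in a bin that was not kept.

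The 3 bitter taste receptor genes on chromosome 7 all had higher mean CPM after the knockdown, and 2 passed the test. Over all tested genes 71.5% passed and 35.5% were higher. The 3 receptor genes lie in the same 50 kb bin of chr7:141750001-141850000, a run of 2 unmarked bins of which 0 were kept. TAS2R5 had 2.19, 3.05, 2.66 and 1.97 CPM in control and 5.66, 6.45, 7.32 and 7.0 CPM in the knockdown, a log2 fold change of 1.40 ± 0.17 (adjusted p = 5.91e-07). TAS2R4 had 1.78, 1.34, 1.13 and 1.64 CPM in control and 3.88, 2.82, 2.53 and 3.05 CPM in the knockdown, a change of 1.07 ± 0.22 (adjusted p = 2.36e-04). For both genes every knockdown library exceeded every control library, and TAS2R4 did not pass with the Scramble libraries added as controls (adjusted p = 0.0651). TAS2R3 had 1.24, 1.46, 0.599 and 0.875 CPM in control and 1.45, 1.85, 1.35 and 1.40 CPM in the knockdown, with overlapping groups and an adjusted p of 0.0916. Nearby AGK, a mitochondrial lipid kinase, fell by 0.45 (adjusted p = 6.27e-05).

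WDR49 and ZBBX, neighbours on chromosome 3 in separate runs of which 0 bins were kept, both rose. WDR49 had 0.0592, 0.0834, 0.200 and 0.164 CPM in control and 1.51, 2.15, 2.61 and 2.22 CPM in the knockdown, the largest log2 fold change of these genes at 4.02 ± 0.37 (adjusted p = 1.71e-08). Its control libraries were close to 0 and its 8 libraries held 119 reads in all, so the size of the change is uncertain. ZBBX had 0.237, 0.501, 0.799 and 0.656 CPM in control and 1.71, 1.26, 1.60 and 1.32 CPM in the knockdown, a change of 1.44 ± 0.32 (adjusted p = 5.51e-04). The 8 libraries held 118 reads of ZBBX in all, so the size of its change is uncertain as well. Both genes had enough reads for the test only through their knockdown libraries, the group where they were high. RefSeq gives a start outside the lamin B1 bins for both genes.

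RBM46, an RNA-binding protein of germ cells, rose by 1.86 ± 0.21 (adjusted p = 1.99e-07) from 1.04 to 2.33 CPM in control to 4.97 to 7.41 CPM in the knockdown. SPATA17, named for its testis expression, rose by 1.15 ± 0.29 (adjusted p = 0.00177) and lay in bins mostly kept. It did not pass in the TruSeq libraries alone (adjusted p = 0.0898), and with 131 reads over the 8 libraries the size of its rise is uncertain. SPATA17 too had enough reads for the test only through its knockdown libraries. PRKXP1, a pseudogene copy of the kinase gene PRKX, rose by 1.17 ± 0.09 (adjusted p = 2.12e-09). Reads of such a copy can be shared with the gene it derives from, so its value is uncertain.

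**Figure D5:**
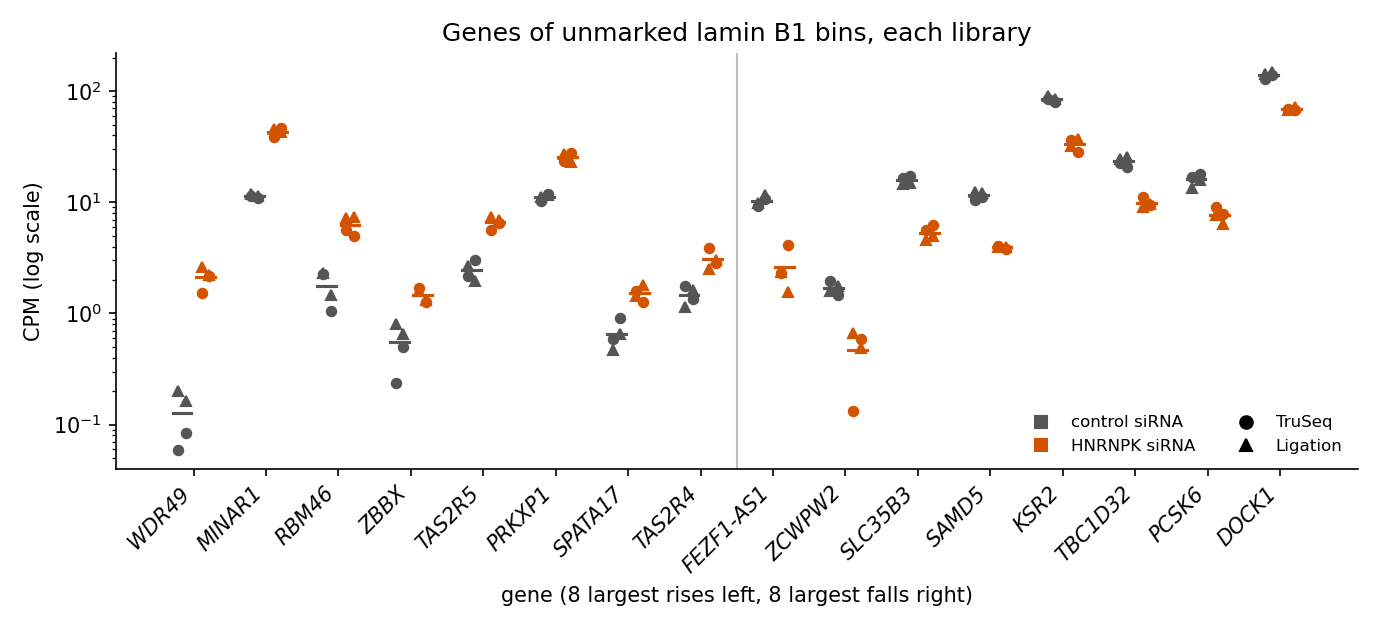
CPM (log axis) in each of the 8 libraries for the 8 genes of unmarked lamin B1 bins with the largest rises (left of the line) and the 8 with the largest falls (right); grey is control siRNA, orange HNRNPK siRNA, circles TruSeq, triangles Ligation, and bars are group means. The groups do not overlap for any of the 16 genes, as the naming rule required.

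The falls included FEZF1-AS1, a long noncoding RNA that lies within the RefSeq span of FEZF1, the gene of a forebrain transcription factor. It had 9.24, 10.6, 9.92 and 11.6 CPM in control and 2.30, 4.15, 2.36 and 1.56 CPM in the knockdown, a fall of 1.99 on the log2 scale (standard error 0.19, adjusted p = 2.55e-08). The strand counted is not given in the sources used here, so its reads and those of FEZF1, with 34 reads in 8 libraries, cannot be told apart. ZCWPW2, which holds a zinc finger and a PWWP domain, fell by 1.86 (adjusted p = 9.81e-05) and overlaps AZI2. The 8 libraries held 148 reads of ZCWPW2 in all, so the size of its fall is uncertain. It had enough reads for the test only through its control libraries, the group where it was high.

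SLC35B3, which carries the sulfate donor PAPS into the Golgi, lay wholly in 1 unmarked bin that was not kept. It had 16.6, 17.1, 14.6 and 14.9 CPM in control and 5.60, 6.31, 4.55 and 4.94 CPM in the knockdown, a fall of 1.56 on the log2 scale (standard error 0.10, adjusted p = 1.87e-10). Every control library was above every knockdown library. KSR2, a scaffold of Ras signalling, fell by 1.33 (adjusted p = 8.14e-12), TBC1D32, a ciliary protein, by 1.24 (adjusted p = 1.67e-09), SAMD5 by 1.54 (adjusted p = 1.14e-09) and PCSK6, a proprotein convertase, by 1.06 (adjusted p = 3.70e-08). Bins of SAMD5 and PCSK6 were mostly kept and those of KSR2 and TBC1D32 mostly not.

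Among the 6 genes with the highest mean control CPM, which is not corrected for length, 4 fell. With 71.5% of all tested genes passing, 35.5% higher and 36.1% lower, this count is a description alone. IGF2R, the receptor that carries mannose 6-phosphate ligands and IGF2 to lysosomes, had 153, 176, 160 and 168 CPM in control and 102.4, 103.2, 77.2 and 82.1 CPM in the knockdown, a fall of 0.85 (adjusted p = 1.42e-09). Its unmarked bins were kept. DOCK1, an activator of Rac, had 128, 139, 143 and 149 CPM in control and 69.0, 67.9, 67.6 and 71.9 CPM in the knockdown, a fall of 1.01 (adjusted p = 2.85e-12). MTR, the methionine synthase gene, fell by 0.80 (adjusted p = 7.24e-10), and KSR2 is given above. The golgin gene GOLGA3 rose by 0.52 ± 0.05 (adjusted p = 4.96e-08), from 116 to 150 CPM in control to 164 to 229 CPM in the knockdown, and did not pass with the Scramble libraries added (adjusted p = 0.0518).

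The chromosome 2 run that was wholly absent from the knockdown list held read and unread genes side by side. LANCL1, a glutathione-binding protein, had 124, 127, 124 and 128 CPM in control and 130, 135, 123 and 127 CPM in the knockdown. These groups overlapped, and the log2 difference was 0.03 ± 0.04 (adjusted p = 0.497). CPS1, the enzyme that starts the urea cycle, had 73.7, 72.1, 83.2 and 85.1 CPM in control and 65.4, 59, 60.5 and 64.4 CPM in the knockdown, a fall of 0.33 on the log2 scale (standard error 0.06, adjusted p = 5.24e-05). ACADL, an acyl-CoA dehydrogenase of fatty acid oxidation, had 6 reads over the 8 libraries and MYL1, a light chain of fast muscle myosin, had 1, too few to test. Lamin B1 was absent from the knockdown list over all 33 bins. A difference in RNA was called for 1 of the 2 tested genes, beside 71.5% of all tested genes.

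In the run on chromosome 4 that kept 2 of 24 bins, FBXO8, an F-box protein, and CEP44, a centrosomal protein, both rose. FBXO8 had 8.35, 8.26, 7.39 and 7.71 CPM in control and 11.2, 9.64, 12.8 and 12.5 CPM in the knockdown, a log2 fold change of 0.53 ± 0.11 (adjusted p = 3.65e-04). CEP44 had 17.1, 16.5, 17.8 and 15.9 CPM in control and 24.7, 22, 25.9 and 22.1 CPM in the knockdown, a change of 0.49 ± 0.08 (adjusted p = 3.37e-05). The groups did not overlap for either gene, as for 56.5% of all tested genes, and 35.5% of all tested genes were higher. FBXO8 did not pass in the TruSeq libraries alone (adjusted p = 0.102) or with the Scramble libraries added (adjusted p = 0.162). HPGD, which degrades prostaglandins, had 49 reads over the 8 libraries, the glycine receptor subunit GLRA3 had 9 and ADAM29 had 0, and none was tested.

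In the run that kept 15 of 29 bins, neither tested gene passed. ARHGAP10 had 29.7 to 34.8 CPM in control and 30.2 to 33.4 CPM in the knockdown, a log2 difference of 0.01 ± 0.07 (adjusted p = 0.917). NR3C2, the mineralocorticoid receptor, had 2.75 to 3.46 CPM in control and 2.22 to 3.09 CPM in the knockdown, a difference of −0.18 ± 0.18 (adjusted p = 0.394). Of the genes under the kept runs, RBFOX1 was not tested, ADAMTS17 differed by 0.13 ± 0.15 (adjusted p = 0.425) and EIPR1 fell by 0.45 (adjusted p = 5.82e-06). SPHKAP, an anchor of protein kinase A, had 4 reads over the 8 libraries. On chromosome 4 as a whole, 10 of 39 genes of unmarked bins were tested, of which 4 were higher and 0 lower. The remaining 6 of the 10 did not pass edgeR's quasi-likelihood test. Over all tested genes 71.5% passed, 35.5% higher and 36.1% lower.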

How the data were processed

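Domain lists for lamin B1, H3K9me2, H3K9me3 and H3K27me3 were deposited by the authors with a score per domain. Per the submitters' processing notes, bcl2fastq 2.20, fastp 0.23.2, Bowtie2 2.5.1 and deepTools 3.1.3 were used with hg38 for these. The domain caller, the use of inputs and the pooling of replicates are not given in the sources used here. The RNA tables hold read counts per gene that the authors deposited, made with STAR 2.7.1a and featureCounts (Subread 2.0.6) on hg38, per the submitters' processing notes, which name both hg19 and hg38 for the Scramble tables and no Subread version there. The kits mark strand, and the strand setting of the counting is not given in the sources used here.

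Bin coverage was computed in Python 3.11.15 with pandas 2.3.3 and numpy 2.4.6. Of 28278 gene names 27612 (97.6%) were placed by RefSeq symbol, 618 of them by a synonym, in GRCh38.p14. A gene belonged to the bins when at least 50% of its span lay in them. Promoter sequences are from RefSeq. Levels are CPM, counts divided by the TMM-scaled library size, and are not corrected for length, so genes were not compared with each other.

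RNA was tested with edgeR 4.0.16 (R 4.3.3), by the quasi-likelihood test with the library kit and the siRNA as terms, the filter filterByExpr and Benjamini-Hochberg adjustment over all 13933 tested genes at 0.05. The steps were tested on simulated data. Domain lists were compared by overlap, with no test. DESeq2 1.42.0, other scalings, filters, terms and library sets were tried as alternatives. Columns of other series numbered 0 and no library was left out of the main test.

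Genes were named by a rule: among tested genes with a mean log2 CPM of at least 0, the 8 largest rises and 8 largest falls that passed without overlap, and the 6 with the highest control CPM. The coding genes of the 5 longest runs, the runs longest by state and members of listed families were added. The genes under the 3 longest kept runs, AGK, TMED3 and FEZF1 were named after their values were seen. The bins, gene lists and tests were chosen with earlier results of these data known.

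The same replicate numbers occur in both siRNA groups. The correlation of deviations from the group means between libraries of the same number was 0.100, 0.425, 0.337 and 0.265 for numbers 1 to 4. Numbers 1 and 2 are TruSeq and 3 and 4 are Ligation in both groups, and after removal of the kit means these correlations were −0.191, −0.156, −0.281 and −0.252.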

Additional observations from a re-analysis of the deposited data

Results flagged for a closer look

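DENND11, DGCR6, SDCCAG8 and PRODH lie mostly in unmarked lamin B1 bins and were too little read to test in the 8 libraries, yet had reads in the Scramble libraries, which the comparison did not use. DENND11, listed there under its older symbol KIAA1147, had 74.1 to 76.5 CPM in the Scramble libraries and 2 reads in the 8 libraries together. DGCR6 had 11.8 to 13.2 CPM, SDCCAG8 had 11 to 11.5 CPM and PRODH had 1.53 to 2.09 CPM, and each had 0 reads in the 8 libraries. Over the whole table, 495 untested coding genes had at least 1 CPM in both Scramble libraries, and 183 of these had 0 reads in the 8 libraries. The submitters' processing notes name hg38 for the 8 libraries and both hg19 and hg38 for the Scramble libraries. The cause was not tested. No library stood far from the rest of its group in 54 groups of 4 checked.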

How the results depend on the processing

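The number of unmarked bins was 2067 with bins of 25 kb, 508 with bins of 100 kb, 377 with domains scoring above their list's median, 504 at 100 kb or more from a domain end and 626 at a shared lowest score, the last chosen after seeing the data. The share kept was then 22.3% in domains scoring above the median, 28.2% away from domain ends and 28.1% at the shared lowest score, and 22.3% when any base and 15.5% when at least 90% of the bin had to be covered. For knockdown H3K9me3 the share was 4.36% in bins without a base of any mark, 3.57% away from domain ends, 10.2% for any base and 2.92% for at least 90%, and for knockdown H3K27me3 it was 12.2% for any base and 3.41% for at least 90%. Without chromosome 4, an alternative also added after seeing the data, 742 bins were left and 21.3% were kept. Genes passing numbered 121 of 184 tested (55 higher, 66 lower) when any base in a bin counted and 16 of 86 (8 higher, 8 lower) at a log2 change of at least 1. By transcription start they numbered 22 of 40 (12 higher, 10 lower), so that more were higher than lower, the reverse of the main count, beside 71.5% passing over all genes. In the TruSeq libraries alone 14 were higher. Leaving out each library in turn gave 49 to 54 genes passing, 18 to 24 higher and 30 to 33 lower. With a replicate block in place of the kit, 52 genes passed (21 higher, 31 lower), and the 26 named genes that were tested kept their calls. With the Scramble libraries added 38 passed, beside 51.7% of all tested genes. Of the 38, 37 were among the 53 with the same sign, and LINC01098 passed in that fit alone (log2 −0.57). DESeq2 gave 49. DRAM1, which had passed at 0.17, turned sign with the Scramble libraries added and did not pass (−0.03, adjusted p = 0.878). No other gene of the 53 turned sign under the other normalisations, filters, model terms or library sets. The difference in library share, −0.0293 percentage points, lay between −0.0310 and −0.0266 when each library was left out. Among the named genes the sign turned for 2, neither of which passed. LANCL1 had a log2 difference of −0.0026 with no filter, −0.049 with the Scramble libraries and −0.019 in the Ligation libraries alone. ARHGAP10 had −0.028 with no filter and −0.025 to 0.042 when each library was left out in turn, falling below 0 without control replicate 1 or 3 and without knockdown replicate 1 or 4. The cause of these differences was not tested. The domain lists have no replicates and the depth behind them is unknown.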
